A study of Mus musculus with 33 samples.

Results

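In the frontal cortex of mice that lack Mef2c in forebrain excitatory neurons, a receptor gene, Lrp3, took more sequencing reads than any other gene, and 5 genes with almost no reads in controls were read in every library. Lrp3, Acoxl, Asic5, Olfr1510, Sult6b1 and Tbx20 were switched on or raised in the knockout, and Entpd4, Igfn1 and Mylk3 were lost or strongly lowered. For Entpd4 a near copy of the gene limits that reading, as given below. The 9 genes were chosen by their values in knockout (CKO) against floxed control (FLOX) libraries, out of 21565 genes in the table, so that contrast is given below as a description with no test. Messenger RNA of the frontal cortex was sequenced from 33 male adult mice on a C57BL/6J background. The 20 wild-type (WT) mice were 6 with control sleep (CS, free to sleep), 7 deprived of sleep for 6 hr (SD) and 7 given recovery sleep (RS). Per the study, RS mice had 4 hr of deprivation and then 2 hr of recovery sleep. The 7 FLOX mice (4 CS, 3 SD) carry loxP sites around a Mef2c exon that encodes part of the DNA-binding domain, and the 6 CKO mice (3 CS, 3 SD) carry the same floxed alleles and a Camk2a-promoter Cre transgene. FLOX mice have no Cre, so no group here shows Cre without the loss of Mef2c, and the gene deletion and the transgene cannot be told apart. The study adds that the floxed line was backcrossed to the WT background and could still vary in expression through incomplete congenicity. What part background has in the values below was not tested. Per the study's methods, all but one of the CKO CS mice also carried a recombined allele through the germline. The labels do not say which library came from the mouse without it, and the SD mice are not described in this respect.

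MEF2C is a MADS-box transcription factor that binds an A and T rich element and can activate or repress the genes beside it, depending on its phosphorylation and its partners. In the heart and in skeletal muscle MEF2 factors drive contractile genes, and in cortical neurons they limit the number of excitatory synapses. The 9 genes share no known pathway. Lrp3 encodes a transmembrane receptor of the low-density lipoprotein receptor family, Tbx20 a T-box factor of heart development, Asic5 a sodium channel of the acid-sensing family that is gated by bile acids, Olfr1510 an olfactory receptor, Acoxl a relative of the peroxisomal acyl-CoA oxidases and Sult6b1 a cytosolic sulfotransferase. Entpd4 encodes a nucleoside diphosphatase of the Golgi and lysosome, Igfn1 an immunoglobulin and fibronectin type III protein of the muscle Z-disc and Mylk3 the cardiac myosin light chain kinase.

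The genes lie on 8 chromosomes in the GRCm38 build (GENCODE M21). Lrp3 is at chr7:35200027-35215498, Acoxl at chr2:127838876-128123873, Asic5 at chr3:81982290-82021233, Sult6b1 at chr17:78883938-78906992 and Tbx20 at chr9:24718138-24774303. Olfr1510 (chr14:52409131-52414373) and Entpd4 (chr14:69337174-69367270) share a chromosome and are far apart, Igfn1 is at chr1:135953578-136006342 and Mylk3 at chr8:85324303-85386345. Promoters of 8 of the 9 genes were matched by symbol in RefSeq (GRCm38.p6), as windows of 300 bases around annotated start sites. The 250 bases upstream of the start are printed for 4 genes, because these genes were all high in CKO and differ in the CG content of their promoters. Capitals mark the letters TATAAA on either strand, overlapping matches joined.

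Lrp3 (chr7:35215346-35215595, minus strand) and Tbx20 (chr9:24774304-24774553, minus strand) have promoters rich in CG:
Lrp3: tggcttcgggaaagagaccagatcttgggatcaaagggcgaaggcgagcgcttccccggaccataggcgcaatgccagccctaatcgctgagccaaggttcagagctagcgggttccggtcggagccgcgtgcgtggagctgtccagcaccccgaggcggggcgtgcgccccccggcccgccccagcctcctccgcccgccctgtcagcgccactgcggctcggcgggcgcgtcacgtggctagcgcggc
Tbx20: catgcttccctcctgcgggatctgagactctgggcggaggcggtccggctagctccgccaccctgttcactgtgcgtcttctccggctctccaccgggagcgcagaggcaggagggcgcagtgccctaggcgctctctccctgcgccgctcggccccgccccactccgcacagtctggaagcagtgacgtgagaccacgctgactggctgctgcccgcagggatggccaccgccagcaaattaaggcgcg
Asic5 (chr3:81996672-81996921, plus strand) and Olfr1510 (chr14:52410928-52411177, minus strand) have almost no CG, and their windows lie inside the longer GENCODE gene:
Asic5: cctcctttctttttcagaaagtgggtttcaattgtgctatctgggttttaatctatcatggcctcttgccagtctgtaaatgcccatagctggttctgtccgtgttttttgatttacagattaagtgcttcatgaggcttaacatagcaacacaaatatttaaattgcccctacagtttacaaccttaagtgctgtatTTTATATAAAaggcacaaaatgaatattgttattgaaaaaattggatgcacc
Olfr1510: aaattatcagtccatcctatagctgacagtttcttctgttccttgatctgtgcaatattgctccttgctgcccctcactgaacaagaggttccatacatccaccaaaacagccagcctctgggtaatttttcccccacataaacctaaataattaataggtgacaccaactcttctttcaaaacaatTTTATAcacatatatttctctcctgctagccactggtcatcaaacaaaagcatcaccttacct

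The 250 bases held 30 CG dinucleotides at Lrp3 and 22 at Tbx20, 1 at Asic5 and 0 at Olfr1510, where the median over 32851 RefSeq promoters is 6. Sult6b1 and Acoxl had 2 each and Igfn1 had 1, while the 2 annotated Mylk3 promoters had 4 and 2. A letter match to the MEF2 consensus on either strand occurred in none of the member promoters, and in 3.19% of all promoters of that length. TATAAA matched in Asic5 (2 overlapping matches) and in Olfr1510 (1), and in 13.6% of all promoters. These are matches of letters and not binding sites, and the table counts reads per gene, so where the transcripts began was not measured.

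Depth was 18935045 to 52918796 reads in FLOX libraries, 29593825 to 94678945 in CKO and 44395583 to 249046089 in WT. Levels are CPM (reads scaled to the library total) divided by a median-of-ratios factor for each library, called rescaled CPM. Where a library or group had 0 reads, up to 3 reads remain possible, and such limits and the intervals below cover counting error only. The WT columns differ from the others in which genes are read at all, since 568 genes had CPM of at least 0.5 in all WT libraries and 0 in all FLOX and CKO libraries, and 5 the reverse. The listed CPM summed to 925580 to 985958 in WT libraries and to 1e+06 in FLOX and CKO libraries. The WT totals thus include reads that the listed genes do not hold. Whether the WT columns were counted on another gene list is not stated in the sources used here. WT levels are therefore set beside the others only as a description. Reads over the whole Mef2c gene were 1371 ± 296 rescaled CPM in CKO (SD, n = 6) and 1197 ± 111 in FLOX (n = 7). The gene total includes exons that Cre leaves in place, so it does not check the deletion.

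All 9 genes separated every CKO library from every FLOX library, 6 upward and 3 downward, which the choice of genes fixes. Over the table, 5.23% of 16780 genes lay higher in all CKO libraries than in any FLOX library, and 4.99% lay lower. Ordered by the CKO minus FLOX difference of mean log2(rescaled CPM + 0.5), the 6 raised genes held places 1 to 5 and 7 of 21565, and the 3 lowered genes places 1, 2 and 6 from the other end. Just inside the choice were Sult6b1 with a difference of 3.90 and Mylk3 with -1.93. Just outside it, named after their values were seen, were Skint6 (3.74) and Fam177a (-1.89). Col4a6 (3.99) was not chosen although its difference was larger than that of Sult6b1. Gstp2 (-2.48), Tspan11 (-2.04) and Tcap (-1.94) were not chosen although their differences were larger in size than that of Mylk3.

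Lrp3 had the largest difference of the table on the log2(rescaled CPM + 0.5) scale. Its level was 6422, 5924 and 5765 rescaled CPM in the 3 CKO CS libraries and 6142, 6304 and 6524 in the 3 CKO SD libraries. In FLOX it was 34.1, 42.9, 39.6 and 45.3 in CS and 37.3, 43.0 and 36.6 in SD. All 6 CKO libraries stood within a narrow band, and the lowest of them was 127-fold above the highest FLOX library. The mean was 6180 ± 294 in CKO (SD, n = 6) and 39.8 ± 4.06 in FLOX (n = 7), a ratio of 155, and the 20 WT libraries lay between 20.5 and 73.2 with a median of 55.2.

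Lrp3 had the highest CPM of all 21565 genes in each of the 6 CKO libraries, where it took 0.629% to 0.733% of the listed reads, and places 3180 to 7097 in the other 27 libraries. Per kilobase of transcript it was also first among 19256 genes of known length in all 6 CKO libraries. The gene overlaps the amino acid transporter gene Slc7a10 on the opposite strand, and 1.92% of the 150-base stretches of its transcripts occur there too. Slc7a10 had 13.3 ± 0.518 rescaled CPM in FLOX (n = 7) and 14.5 ± 0.790 in CKO (n = 6). The libraries were strand-specific, but whether the counting used strand is not given in the sources used here, so it is not known whether reads in the overlap were kept apart. In bulk tissue a change in RNA per cell and a change in the number of cells of a type cannot be told apart, for this gene or for those below.

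**Figure D1:**
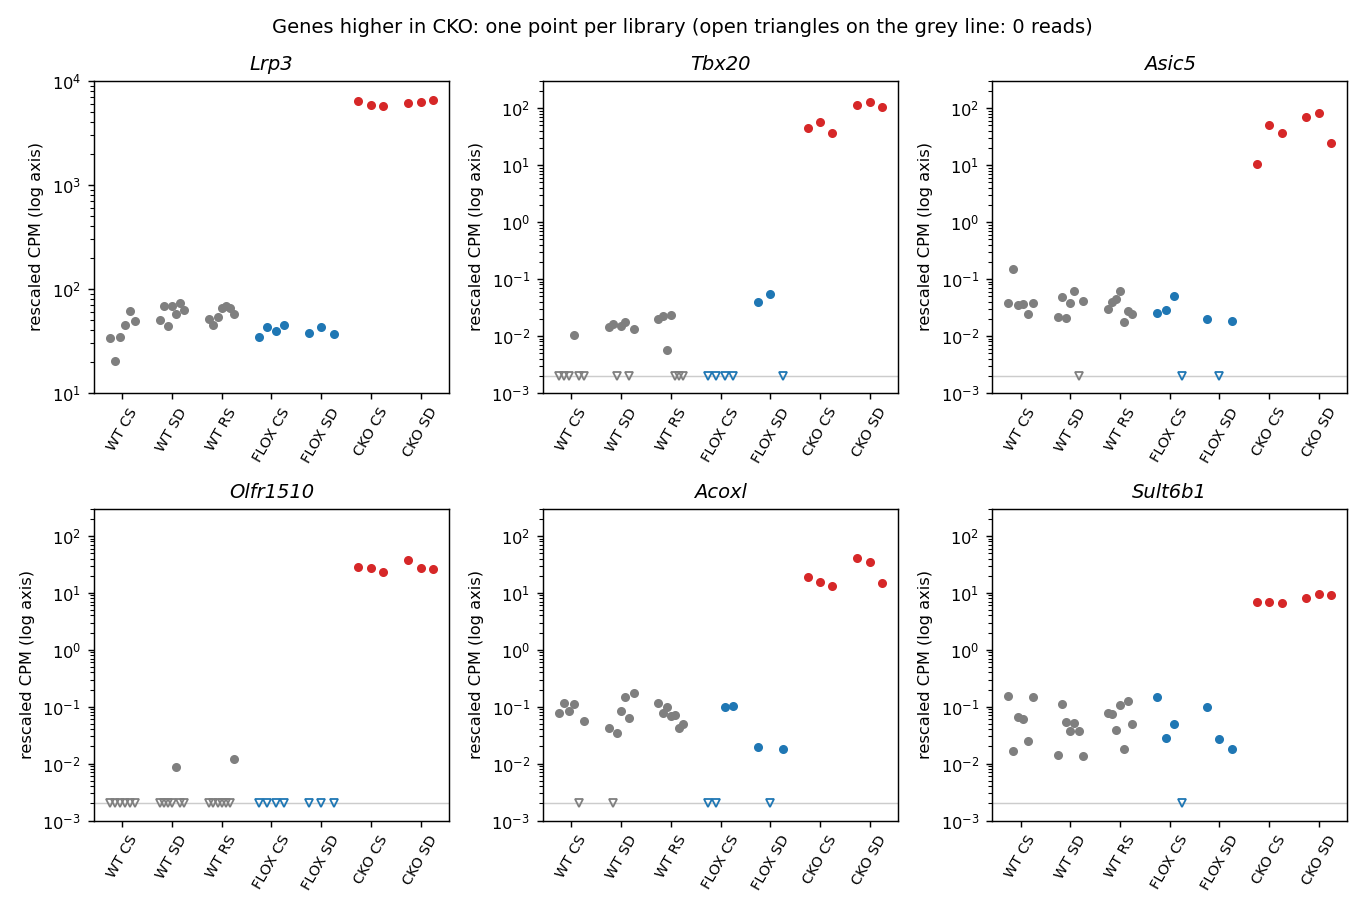
Rescaled CPM (log axis) of the 6 genes higher in CKO, one point per library in the 7 groups, with open triangles on a grey line for libraries with 0 reads. The red CKO points form their own band in every panel, and Tbx20 lies higher in CKO SD than in CKO CS.

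Tbx20, which cardiac progenitors use, was next to absent outside the knockout. It had 44.8, 56.7 and 37.2 rescaled CPM in CKO CS and 113, 129 and 104 in CKO SD. All 4 FLOX CS libraries had 0 reads of it, and the 3 FLOX SD libraries had 2, 2 and 0. The 20 WT libraries had 0 to 4 reads each. Every CKO library stood above every other library, and the mean was 80.9 ± 39.2 (SD, n = 6). Over all reads of the genotypes, the ratio of CKO to FLOX was 5800 with a 95% counting interval of 2265 to 21286, wide because FLOX held 4 reads in all.

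Asic5 was the least even of the raised genes. It reached 10.4, 50.3 and 36.6 rescaled CPM in CKO CS and 70.8, 82.8 and 24.1 in CKO SD, a spread among the 6 libraries of 45.8 ± 27.7 (SD). The 7 FLOX libraries had 0 to 2 reads each, 6 in all, and the 20 WT libraries 0 to 9 reads. The CKO libraries did not overlap any other, and the ratio of all reads between CKO and FLOX was 1826 (95% counting interval 839 to 4976). Acoxl shared part of that unevenness. It had 18.8, 15.7 and 13.4 rescaled CPM in CKO CS and 41.5, 35.3 and 15.0 in CKO SD, so its SD libraries 5 and 6 stood above the rest, as they did for Asic5. FLOX libraries had 0 to 4 reads of Acoxl, 8 in all, and the ratio of CKO to FLOX was 714 (362 to 1653).

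Olfr1510 was read in knockout cortex although olfactory receptors are normally made by sensory neurons of the nose. It had 28.3, 27.3 and 23.1 rescaled CPM in CKO CS and 37.2, 27.5 and 26.5 in CKO SD. All 7 FLOX libraries had 0 reads, and 18 of the 20 WT libraries had 0 and the other 2 had 1 read each. The groups did not overlap, and with 3 reads allowed over all FLOX libraries the CKO mean of 28.3 ± 4.70 (SD, n = 6) was at least 2613-fold higher. The other olfactory receptors did not follow it. Of 1137 Olfr genes in the table, 1013 had 0 reads in all CKO libraries, 2 had CPM of at least 1 in any CKO library, and the highest value of any Olfr gene but Olfr1510 was 2.11 CPM. Its 6 listed neighbours in the receptor cluster had 0 to 7 reads in all CKO libraries together. Olfr1511, which shares 10.9% of the 150-base stretches of Olfr1510, had 0.

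Sult6b1 was the lowest of the genes that were switched on. Its level was 6.78, 6.84 and 6.55 rescaled CPM in CKO CS and 8.09, 9.67 and 9.05 in CKO SD, against 0 to 6 reads in each FLOX library and 1 to 16 in each WT library. The ratio of all reads between CKO and FLOX was 139 (95% counting interval 85.7 to 243). Per kilobase of exon, mean CKO levels ran from 1315 rescaled CPM for Lrp3 through 19.9 for Asic5, 14.3 for Olfr1510, 7.32 for Acoxl and 6.74 for Tbx20 to 3.69 for Sult6b1. With SDs of 2.37 for Olfr1510, 3.78 for Acoxl and 3.27 for Tbx20, Asic5 and Olfr1510 lay within the SD of Asic5 of each other, and Acoxl and Tbx20 did not differ beyond their spread.

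Entpd4 had 0 reads in all 6 CKO libraries. FLOX libraries had 3.81, 5.04, 4.81 and 11.9 rescaled CPM in CS and 3.28, 3.66 and 4.38 in SD, which are 135 to 238 reads each, and the 20 WT libraries had 1.29 to 9.15 with a median of 5.32. With 3 reads allowed over all CKO libraries, the FLOX mean of 5.27 ± 2.98 (SD, n = 7) was at least 512-fold higher. The value has a limit in the annotation. All 8304 stretches of 150 bases in Entpd4 transcripts also occur in its neighbouring copy Entpd4b, which is not a row of the table. Only uniquely mapped reads were counted, and stretches of that length cannot tell the pair apart.

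Igfn1 and Mylk3, a pair of muscle genes, were lowered but still read in CKO. Igfn1 had 12.7, 6.82 and 1.33 rescaled CPM in CKO CS and 2.42, 2.70 and 4.32 in CKO SD. In FLOX it had 36.2, 46.1, 23.2 and 28.6 in CS and 28.0, 29.0 and 23.7 in SD. The highest CKO library stayed below the lowest FLOX library, and the FLOX mean of 30.7 ± 8.06 (n = 7) was 6.08-fold the CKO mean of 5.05 ± 4.21 (n = 6). Mylk3 had 1.75, 1.01 and 0.812 in CKO CS and 0.736, 1.11 and 0.807 in CKO SD. Its FLOX libraries had 6.51, 6.77, 5.03 and 5.07 in CS and 4.86, 4.97 and 3.85 in SD, a mean 5.11-fold that of CKO with no overlap. WT libraries lay at 14.6 to 35.5 for Igfn1 and at 1.85 to 5.28 for Mylk3, all above the CKO values. Entpd4 (Gm16867, Gm27221), Mylk3 (AA672651) and Sult6b1 (Gm26637) overlap annotated genes on the opposite strand, with the same limit on their reads.

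**Figure D2:**
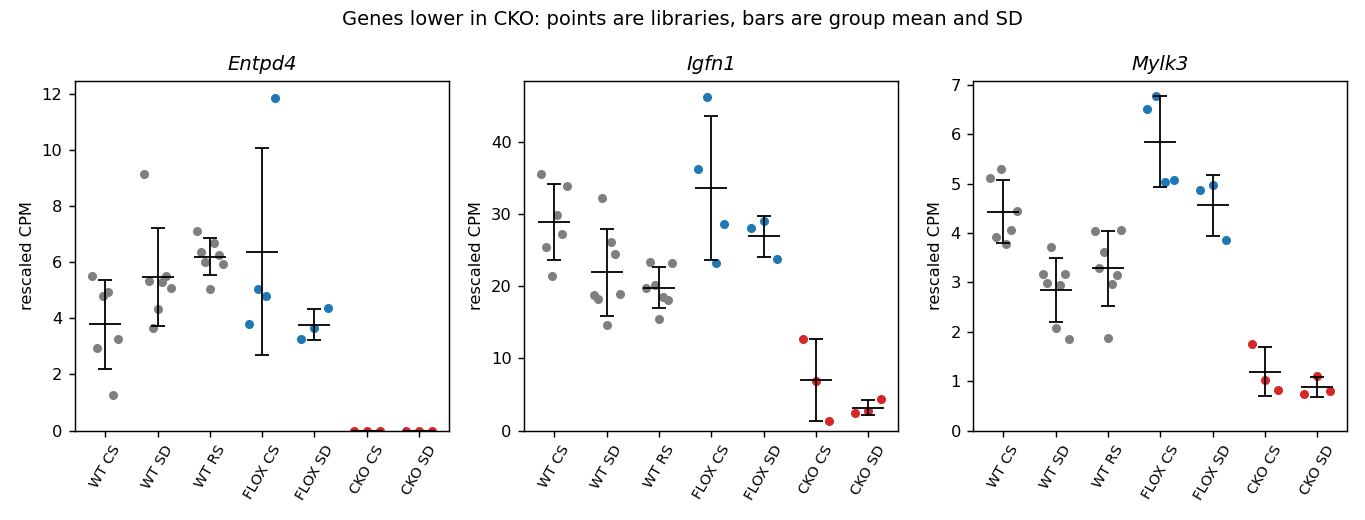
Rescaled CPM of Entpd4, Igfn1 and Mylk3 per library (points) with group mean and SD (bars) in the 7 groups. Entpd4 sits at 0 in all 6 CKO libraries, and 1 FLOX CS library at 11.9 stands above the other FLOX libraries.

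Markers of other tissue moved with some of these libraries. CKO CS library 5 had a summed level of 326 rescaled CPM over 7 choroid plexus and ependyma markers, where the other CKO libraries had 11.1 to 26.0 and FLOX libraries 7.44 to 17.6. The same library had the lowest Asic5 and the highest Igfn1 of CKO. CKO CS library 8, with the lowest Igfn1, had the highest sums of astrocyte (2407) and microglia (436) markers, where FLOX libraries had 601 to 710 and 137 to 158. The other CKO libraries also lay above all FLOX libraries, at 779 to 1024 for astrocyte and 163 to 204 for microglia markers. WT libraries had 548 to 1145 and 150 to 212. In the 4 CKO libraries other than CS libraries 5 and 8, Lrp3 was 5924 to 6524, Asic5 24.1 to 82.8 and Igfn1 2.42 to 6.82. The part of such cells in the values of Asic5, Igfn1 and the other members was not tested. The 7 markers of olfactory bulb and olfactory sensory neurons summed to 238 to 387 in CKO, 200 to 297 in FLOX and 229 to 415 in WT, and Omp, the defining marker of the sensory neurons, had 0 reads in all 33 libraries. Eomes, Doc2g and Cdhr1 of that list were higher in CKO SD than in FLOX SD, by log2 fold changes of 3.17, 2.76 and 3.79. In CS they differed by 2.00, 1.70 and 1.84 and were not called. FLOX CS library 3 had 5.61 of Eomes, 6.66 of Doc2g and 28.7 of Cdhr1, within the range of CKO, and 0 reads of both Olfr1510 and Tbx20. The part of olfactory bulb tissue in the values of the raised genes was not tested. The 10 markers of cortical excitatory neurons summed to 1807 to 2184 in CKO and 2069 to 2459 in FLOX, and none of the 10 was at 0 in any group.

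Most genes beside the members were not called. The 3 nearest protein-coding genes on each side that the table lists are 54 genes, of which 34 were tested in CS and 35 in SD with limma on log2(rescaled CPM + 0.5). Called genes had a limma p, adjusted by Benjamini-Hochberg over all genes tested, no higher than 0.05 and a log2 fold change of 0.3 or more in size. In CS, 2 neighbours were higher in CKO and 1 was lower, where 3.17% of 12681 genes were called higher and 4.5% lower. In SD, 4 were higher and 3 lower, where 9.1% of 12774 genes were called higher and 5.99% lower. Of the 6 neighbours of Lrp3, only Cebpa, a leucine zipper factor, was called, with a log2 fold change of 0.52 in SD (limma adjusted p = 0.0308). Npy2r, a neuropeptide Y receptor gene near Asic5, was higher in both states, by 1.33 in CS (limma adjusted p = 0.0140) and 0.80 in SD (adjusted p = 0.0195). Tmem9 beside Igfn1 was higher in both, by 0.49 and 0.40, while Tnnt2, the cardiac troponin T gene on the other side of Igfn1, was lower in both, at -1.10 and -0.51. WT levels are set beside these as a description. For Npy2r and Tnnt2, WT means (4.41 and 3.02 rescaled CPM) were nearer CKO (5.50 and 2.26) than FLOX (2.36 and 4.53). For Cebpa and Tmem9, WT means (2.28 and 24.2) were nearer FLOX (2.14 and 23.6) than CKO (3.56 and 32.2). The count of neighbours called was 1 to 5 in CS and 2 to 8 in SD with 1 library left out. In CS it became 5 without FLOX CS library 1 and 1 without CKO CS library 7. In SD it became 3 without FLOX SD library 1, 2 without FLOX SD library 3 and 3 without CKO SD library 5.

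**Figure D3:**
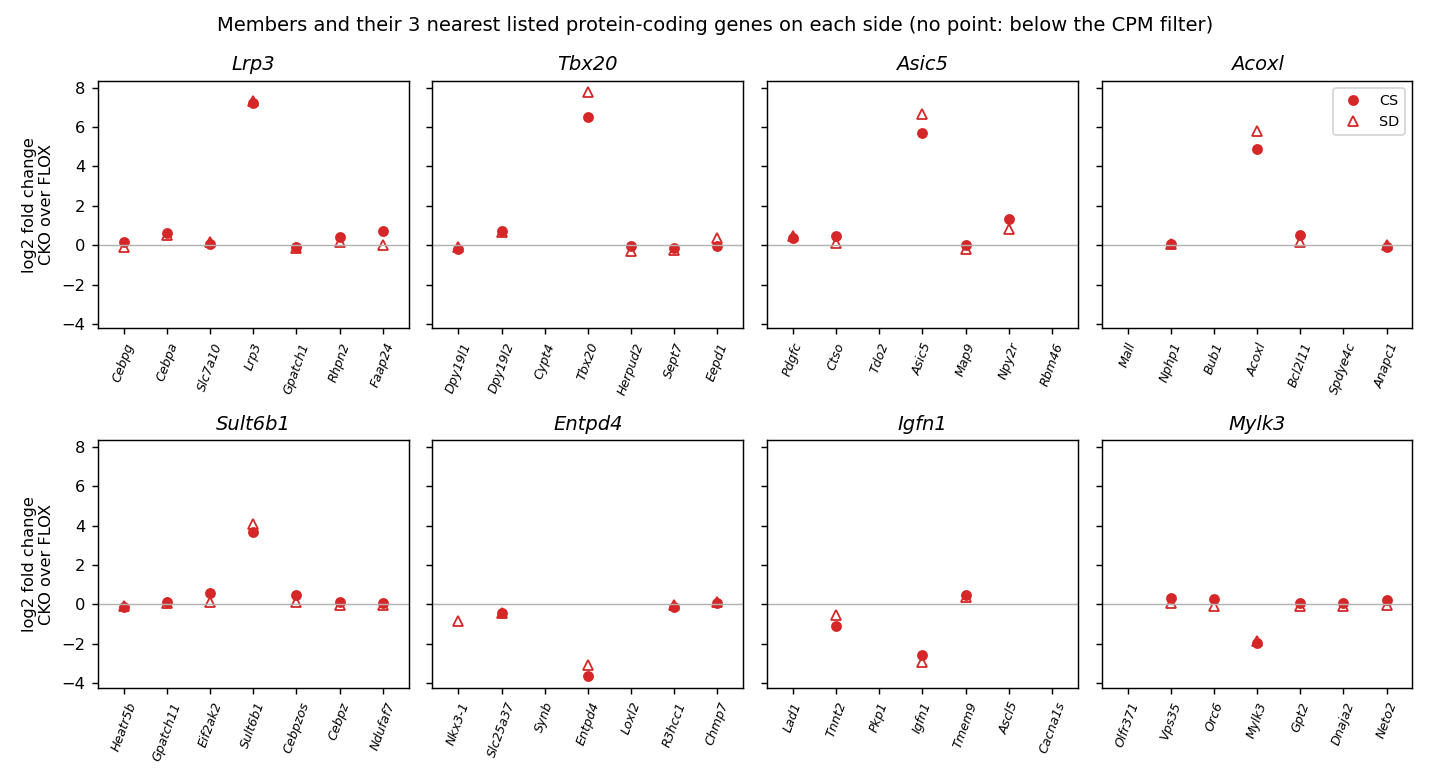
Log2 fold change of CKO over FLOX in CS (filled circles) and SD (open triangles) for 8 members and their 3 nearest listed protein-coding genes on each side, in genomic order but not to scale. In each panel the member lies far from 0 and most neighbours lie near it, and a missing point means that the gene did not reach the CPM filter.

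Relatives of the members were called at shares that are set beside those of the whole table. The lists, gene families of the members and muscle genes, held 150 genes, of which 147 are in the table and 77 were tested in CS and 80 in SD. In CS 1 was higher and 6 lower in CKO, against 3.17% and 4.5% of all genes tested, with a median log2 fold change of 0.07 where all genes tested had 0.03. In SD 9 were higher and 11 lower, against 9.1% and 5.99% of all genes tested, with a median of 0.07 against 0.01. Calls over the whole table also rose from CS to SD, so the larger count in SD is no result about the relatives. None of 16 tested genes of the low-density lipoprotein receptor family was called in CS, and in SD the receptor genes Lrp4 (0.46) and the chaperone gene Lrpap1 (0.37) were higher and the sorting receptor gene Sorl1 was lower (-0.33). Among T-box genes, Eomes (3.17) and Tbx4 (1.64) were called higher in SD. In CS 5 were tested and 0 called, with Eomes at 2.00 (limma adjusted p = 0.166) and Tbx4 below the CPM filter. Tbx4 passed the filter in SD only through CKO, with 23 reads over all FLOX libraries, so its call sets CKO against a floor. Eomes is also one of the olfactory bulb markers above and ran from 0 to 5.61 rescaled CPM among FLOX libraries. Entpd7, another enzyme of the Entpd4 family, was lower in both states, at -0.42 in CS and -0.37 in SD.

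Of 76 listed genes tested in both sleep states, 6 were called lower in both, Entpd7 and 5 muscle genes, where 2.54% of 12595 genes were. The lists were chosen with earlier results of these data known, so these shares are a description and no test of muscle genes. Mean WT levels, also a description, were 13.9 rescaled CPM for Entpd7 and 13.7 for Myl4. These were nearer CKO (16.6 and 12.7) than FLOX (21.8 and 23.3). For Mybpc1, Tcap, Tnnc1 and Tnnt2 the WT means (4.91, 2.03, 5.36 and 3.02) lay between those of FLOX and CKO. Tcap and Tnnc1 also stood near the low end of the CKO minus FLOX order that ranked the members, at -1.94 and -1.80. Of 45 striated muscle genes 14 were tested in CS, and Tcap, Tnnc1 and Tnnt2 were lower in CKO and none higher, where 4.5% of all genes were called lower. Of 15 tested in SD, these 3 and Pln were lower and Neb was higher, where 5.99% of all genes were called lower. Tcap, which encodes the titin cap, had a log2 fold change of -1.63 in CS and -2.27 in SD. Tnnc1, the cardiac and slow troponin C gene, had -1.52 and -2.07. Tcap had 0.0614 to 1.09 rescaled CPM in CKO and 2.08 to 3.64 in FLOX. Tcap thus passed the CPM filter only through FLOX, so its calls set FLOX against a floor and are read as a description. Pln, called only in SD, was also low, at 0.418 to 1.24 in CKO and 0.751 to 2.09 in FLOX over both states. Among the relatives of Igfn1 and Mylk3, Mybpc1, a myosin-binding protein gene, and Myl4, a light chain gene, were also lower in both states, with -0.77 and -0.99 for Myl4. Myl12b was higher in CS and Myl6 in SD. Without 1 library the count over the lists ran from 1 to 5 in CS, and it was 1 without FLOX CS library 2 or CKO CS library 7, 3 without FLOX CS library 3 and 4 without FLOX CS library 4, CKO CS library 5 or CKO CS library 8. In SD it ran from 7 to 24, with 7 without FLOX SD library 1, 9 without FLOX SD library 3, 12 without CKO SD library 5 and 13 without FLOX SD library 2 or CKO SD library 7.

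Whether sleep state moves these genes in mice with intact Mef2c was asked in the WT libraries, which the choice of genes did not use. Lrp3, Entpd4, Igfn1 and Mylk3 reached the CPM filter there. From CS to SD, 2 of the 4 were called, where 45.1% of 12913 genes were called, so the share is near that of the whole table. Lrp3 ran from 20.5 to 61.0 rescaled CPM in CS (median 39.7) and from 43.8 to 73.2 in SD (median 63.1). The groups overlapped, and the log2 fold change was 0.63 (SE 0.21, limma adjusted p = 0.0220). It held with each of 13 libraries left out, and ended with the replicate number as a block (0.69, limma adjusted p = 0.0607). Lrp3 had a GC content of 62.9%, the 99.2 percentile among genes with CPM of at least 1 in every library. With each library corrected for GC content and transcript length its log2 fold change was 0.03 (SE 0.079, limma adjusted p = 0.7997), so the call ended.

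Mylk3 moved the other way in WT. It ran from 3.77 to 5.28 in CS (median 4.25) and from 1.85 to 3.71 in SD (median 2.98), with no overlap between the groups. The log2 fold change was -0.58 (SE 0.14, limma adjusted p = 0.00637), and -0.59 once GC content and length were corrected. The call ended with CPM as deposited (-0.33, limma adjusted p = 0.0553) and with the replicate number as a block (-0.53, limma adjusted p = 0.0511). Igfn1 had medians of 28.5 in CS and 18.8 in SD with overlapping ranges, and its log2 fold change of -0.41 did not pass (limma adjusted p = 0.0509). It passed with the GC content and length correction (-0.58, limma adjusted p = 0.0128) and with DESeq2 (-0.41, adjusted p = 0.0464). Entpd4 had medians of 4.04 and 5.30, and 0.54 did not pass either (adjusted p = 0.0875).

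From CS to RS, a comparison that shares the CS libraries, 2 of 4 members were called in WT, where 17.5% of 12752 genes were. Entpd4 ran from 1.29 to 5.51 in CS (median 4.04) and from 5.04 to 7.12 in RS (median 6.26), overlapping at the edge, with a log2 fold change of 0.74 (SE 0.23, limma adjusted p = 0.0425). Igfn1 ran from 21.5 to 35.5 in CS and from 15.4 to 23.3 in RS, with a log2 fold change of -0.53 (SE 0.13, limma adjusted p = 0.0334). Both calls ended when any one of WT CS libraries 1, 2 and 3 or WT RS libraries 3, 4, 5, 6 and 12 was left out, which left 0 of 4 called, although the log2 fold changes stayed between 0.51 and 0.86 and between -0.61 and -0.47. Lrp3 (0.57, adjusted p = 0.0530) and Mylk3 (-0.40, adjusted p = 0.0594) missed the threshold, and both were called too when WT RS library 1 was left out, giving 4. Between RS and SD limma called 0 of the 4, at an adjusted p of 0.986 for each and with no unadjusted p under 0.05, and edgeR and DESeq2 called 0 too, where 0.0232% of 12921 genes were called.

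**Figure D4:**
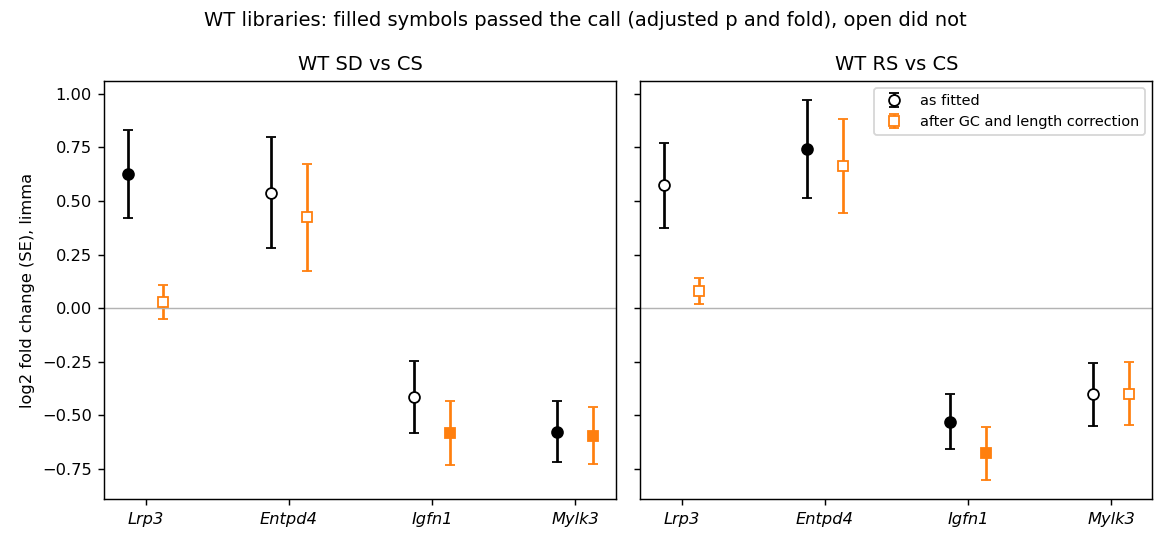
Log2 fold change with its SE in WT libraries for SD over CS and RS over CS, as fitted (circles) and after correction for GC content and transcript length (squares), with filled symbols for values that passed the call. Lrp3 drops to near 0 after the correction, and Igfn1 and Mylk3 stay below 0.

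The 5 genes under the filter in WT were tested one at a time between pairs of WT groups, in 15 two-sided exact permutation tests over libraries. Tbx20 had 2 reads over 6 CS libraries and 8 over 7 SD libraries, with an exact permutation p = 0.0373 that was not adjusted. The other 14 tests gave exact p of 0.152 or more. With 0 to 4 reads a library, a difference in Tbx20 of this size rests on single reads.

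Within FLOX and CKO, sleep states were compared on the same libraries that had chosen the genes, but not on the contrast that chose them. Limma called 0 of 4 members between FLOX SD and CS, with 0 at an unadjusted p under 0.05 and 0 called by edgeR or DESeq2, where 0.0403% of 12410 genes were called. Mylk3 came closest at -0.32 (adjusted p = 0.299). In CKO, 0 of 7 members were called, where 0.0234% of 12810 genes were, and Tbx20 and Sult6b1 had an unadjusted p under 0.05. Both lay higher in all CKO SD libraries than in any CKO CS library, which 4.74% of 16716 genes did. Tbx20 was 2.50-fold higher in SD, a log2 fold change of 1.33 (SE 0.16, limma adjusted p = 0.190), and DESeq2 on the recovered reads called it at 1.32 (adjusted p = 3.22e-10). Sult6b1 was 1.33-fold higher (log2 0.38, SE 0.11, limma adjusted p = 0.998). Lrp3 differed between CKO SD and CS by 0.07 (SE 0.15), while Asic5 and Acoxl differed by 0.94 (SE 0.66) and 0.81 (SE 0.36), within the spread between libraries.

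Whether the response to sleep loss differed between the genotypes was tested as an interaction in one fit over FLOX and CKO, in which limma called 0.00778% of 12860 genes. This term can be read for Lrp3 and Igfn1, which reached CPM 1 in every library of both genotypes. Limma, edgeR and DESeq2 called 0 of these genes. The term was 0.12 for Lrp3 (SE 0.14, limma adjusted p = 0.827) and -0.39 for Igfn1 (SE 0.71, adjusted p = 0.886), with no unadjusted p under 0.05. Mylk3 had reads in every library but passed the filter only through FLOX. Its CKO values of 0.736 to 1.75 rescaled CPM lie near the added 0.5. Its term of 0.06 (SE 0.29) is therefore a description and not read as a test. The SE of Igfn1 is wide, and a missed threshold does not show that the genotypes responded alike. The other 6 members had 0 to 16 reads in all libraries of one genotype together and passed the filter only through the other, so their term sets a difference within one genotype against a floor and is not read as a test. For Tbx20 it changed sign with the method, from 1.24 with limma to -2.14 with edgeR and -0.999 with DESeq2.

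Genes whose pattern over the 33 libraries was most like that of a member were sought among 13452 genes for the 4 members with a median of at least 10 reads. The pattern of Lrp3 was matched by Olfr1510, Sult6b1 and Tbx20, with a Pearson r of 0.99 for each across libraries. The libraries fall into 2 levels for these genes, so r mostly restates which libraries are CKO. Igfn1 was most like Mylk3 (0.91), Tspan11 (0.89) and Afap1l1 (0.88), and Mylk3 was most like Map3k5 (0.91), Igfn1 and Tbc1d30 (0.89). Entpd4 was most like Fam177a (0.94), Gstp2 (0.89) and Srp54a (0.86). These 3 genes also have near copies, since 98.4% of the 150-base stretches of Fam177a, 35.7% of those of Gstp2 and 64.5% of those of Srp54a occur in another gene. Fam177a had 0 reads in all 6 CKO libraries and 370 reads over the 7 FLOX libraries, and Gstp2 had 22 and 712. Over the table, 3 genes had CPM of at least 0.3 in all FLOX libraries and 0 in all CKO libraries. They were Entpd4, Fam177a and Ccl27b, and 97.5% of the stretches of Ccl27b occur in another gene too.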

How the data were processed

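Sequencing reads were quality filtered by the authors (FASTQC, Trimmomatic) and mapped to mm10 (STAR). HTSeq counted those mapping uniquely, and CPM values from edgeR were deposited. Each deposited CPM value was divided by the worth of 1 read, which gave whole numbers (within 0.01) for 100% of 711645 values, so reads could be recovered. Columns left unused numbered 0. Scaling factors (median of ratios) came from 11570 genes. limma 3.58.1 (R 4.3.3) was fitted to log2(rescaled CPM + 0.5) over the whole table, separately for each comparison, keeping genes that reached CPM 1 in every replicate of a group. The code was tested on simulated data. Alternatives used pseudocounts of 0.1 or 1, unscaled CPM, no filter, edgeR 4.0.16, DESeq2 1.42.0, left-out libraries, the replicate number as a block and, added after seeing the data, a GC content and length correction by splines (5 and 4 degrees of freedom). Members, gene lists and the rule for named genes (members, 3 neighbours on each side, called list genes, 3 most similar genes) were chosen with earlier results of these data known. Libraries were grouped by the labels, which do not say more than that each is a separate sample, so p-values measure the spread between these samples. Replicates differed beyond sampling noise in all 72 pairs, and same-numbered libraries did not all deviate together, so numbers were not taken as pairs.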

Additional observations from a re-analysis of the deposited data

Results flagged for a closer look

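Of 33 sets of values (a member in a group of 4 to 7 libraries), 7 held 1 library far from the others by Dixon's test. Its rate of about 1 in 20 holds for normal values and not for counts near 0, so the number flagged is not read against it. Entpd4 was 9.15 rescaled CPM in WT SD library 1, where the others had 3.66 to 5.52, and 11.9 in FLOX CS library 4, where the others had 3.81 to 5.04. Asic5 was 0.150 in WT CS library 2 (9 reads) and 0.0247 to 0.0383 in the others. Sult6b1 was 0.113 in WT SD library 2 (7 reads) and 0.0134 to 0.0544 in the others. Single libraries held the only reads in 3 groups, which makes a flag certain. These were Olfr1510 at 0.00872 in WT SD library 6 (1 read) and 0.0123 in WT RS library 12 (1 read), and Tbx20 at 0.0102 in WT CS library 4 (2 reads).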

How the results depend on the processing

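No member called in the WT comparisons changed sign under any alternative run. In WT from CS to SD, 2 members were called, 2 to 3 with 1 library left out, 3 with DESeq2 (Igfn1 added) and 0 with the replicate block, where Lrp3 (0.69, adjusted p = 0.0607) and Mylk3 (-0.53, adjusted p = 0.0511) missed the threshold and 287 genes of the table were called in place of 5826. From CS to RS, 2 were called, 1 without a filter, with edgeR or with the GC content and length correction, 4 with DESeq2 or the replicate block, and 0 to 4 with 1 library left out. The correction, chosen after seeing the data, left Lrp3 at 0.08 there (adjusted p = 0.377) and called 506 genes of the table in place of 2232. With CPM as deposited the median of all genes moved from 0.04 to 0.30 (CS to SD) and from 0.02 to 0.20 (CS to RS). From CS to SD this scaling lost Mylk3 (-0.33, adjusted p = 0.0553) and gained Entpd4 (0.78, adjusted p = 0.0173). From CS to RS it lost Igfn1 (-0.34, adjusted p = 0.0801) and gained Lrp3 (0.76, adjusted p = 0.0471). In CKO, DESeq2 called 1 member and limma 0. The interaction called 0, and 0 to 1 with 1 library left out. The 1 was Tbx20 without CKO CS library 7 (1.40, adjusted p = 0.04999), a term that rests on 4 FLOX reads and had the opposite sign with edgeR and DESeq2. With the GC content and length correction 2 were called from CS to SD, Mylk3 and Igfn1. Listed genes called in CKO against FLOX were 7 in CS (13 with DESeq2, 1 to 5 with 1 library left out) and 20 in SD (7 to 24), and neighbouring genes 3 in CS (5 with DESeq2, 1 to 5) and 7 in SD (2 to 8). The single exact test under 0.05 among 15 in WT was lost without WT SD library 1, 2, 4, 6 or 9 (0 to 1). Replicate numbers were not taken as pairs, since not every same-numbered pair correlated over 0.1, which cannot show that no pairing exists. Between WT RS and CS every same-numbered pair correlated positively, from 0.07 to 0.67, and the block called 4279 genes of the table in place of 2232. The replicate block changed no other call of a member beyond those named and Lrp3 and Mylk3 from CS to RS. No paired analysis was possible between CKO and FLOX because they share no replicate number. The causes of these changes were not tested. Depth limits genes under about 10 reads a library, and a count of 0 allows 3 reads.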
